A study of Homo sapiens with 16 samples.

Results

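The wider interferon-stimulated gene module comprises 48 genes that cells transcribe more after interferon, taken by symbol from outside the OAS, IFIT, MX, ISG15 and PARP families. All 48 symbols were found among the 59428 genes of the count table. The study exposed the ovarian carcinoma cell lines OVCAR3 and UWB1.289 for 96 h to olaparib, an inhibitor of PARP enzymes, or to its solvent DMSO, and sequenced 4 replicates in each of the 4 groups of line and treatment. UWB1.289 is BRCA1 mutated and received 3.5 µM olaparib, whereas OVCAR3 carries wild-type BRCA1 and received 7.5 µM, doses set at the IC50 of each line. The lines were kept in different media. Cell line, BRCA1 status, dose and medium therefore cannot be told apart in any comparison between the lines. The design text says that the treatment was done 4 times, but no label says whether the replicates were separate cultures, so a p-value measures the spread between these libraries.

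Interferons bind receptors that activate JAK kinases, and these phosphorylate STAT proteins. Complexes of STAT proteins with IRF9 bind the interferon-stimulated response element (ISRE) in promoters, while STAT dimers bind the gamma-activated site (GAS). The genes switched on in this way code for proteins that block viral entry, sense or degrade foreign nucleic acid, tag proteins with ubiquitin or form nuclear bodies, and some of them can also be transcribed through IRF proteins without interferon. In tumour cells their RNA is a common readout of cytosolic DNA or RNA sensing.

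Because the members were grouped by function and not by sequence, their promoters were searched for both elements. RefSeq windows on GRCh38.p14, each of 300 bases with 250 before and 50 after a transcription start, matched 37 of the 48 members. The ISRE core was searched as GAAANNGAA and, on the other strand, TTCNNTTTC. It was found in the windows of 26 of the 37 members (70.3%), against 9.9% of the 27305 genes with a window and 8.1% of the 35116 windows. The GAS, TTCNNNGAA, reads the same on both strands and was found in 11 of 37 members (29.7%), against 9.4% of genes and 7.7% of windows. The 43 ISRE matches of the members began between 222 bases before and 42 bases after the start, and 23 of them began within the last 100 bases before it. The share with an ISRE match was 66.7% (12 of 18) among members raised more than 2-fold by olaparib in UWB1.289, 68.8% (11 of 16) among tested members that were not, and 3 of 3 among members too scarce to test. A match describes letters, not binding, and these shares were not tested. Shown are the first 280 bases, 5′ to 3′, for the 4 strongest UWB1.289 responders with a match and for MOV10 and TRIM26, which passed the test in neither line. Capitals mark the ISRE matches, which overlap each other in part in RTP4 and TRIM26.
CMPK2 (chr2:6865790-6866069, reverse strand): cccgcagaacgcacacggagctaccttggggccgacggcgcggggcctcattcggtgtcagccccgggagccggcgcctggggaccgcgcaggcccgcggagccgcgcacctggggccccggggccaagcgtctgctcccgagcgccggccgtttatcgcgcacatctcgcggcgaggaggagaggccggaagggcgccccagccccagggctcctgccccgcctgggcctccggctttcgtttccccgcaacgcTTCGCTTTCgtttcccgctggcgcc
GBP4 (chr1:89198913-89199192, reverse strand): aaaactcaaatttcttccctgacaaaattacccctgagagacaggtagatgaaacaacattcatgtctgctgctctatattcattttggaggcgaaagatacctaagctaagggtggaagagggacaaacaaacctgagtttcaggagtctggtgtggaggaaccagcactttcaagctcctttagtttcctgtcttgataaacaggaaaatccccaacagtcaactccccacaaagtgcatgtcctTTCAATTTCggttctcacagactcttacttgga
RTP4 (chr3:187368135-187368414, forward strand): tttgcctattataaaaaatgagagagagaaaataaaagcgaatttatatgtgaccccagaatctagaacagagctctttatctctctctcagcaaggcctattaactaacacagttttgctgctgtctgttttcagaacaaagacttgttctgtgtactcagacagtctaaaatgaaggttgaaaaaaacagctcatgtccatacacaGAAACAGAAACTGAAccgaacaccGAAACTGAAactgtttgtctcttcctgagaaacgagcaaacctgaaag
SAMD9 (chr7:93117950-93118229, reverse strand): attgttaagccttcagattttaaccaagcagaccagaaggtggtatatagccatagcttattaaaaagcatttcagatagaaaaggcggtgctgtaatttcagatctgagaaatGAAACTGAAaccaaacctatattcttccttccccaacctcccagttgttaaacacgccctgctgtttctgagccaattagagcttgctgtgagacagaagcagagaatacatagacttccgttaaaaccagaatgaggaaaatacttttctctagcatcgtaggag
MOV10 (chr1:112674488-112674767, forward strand): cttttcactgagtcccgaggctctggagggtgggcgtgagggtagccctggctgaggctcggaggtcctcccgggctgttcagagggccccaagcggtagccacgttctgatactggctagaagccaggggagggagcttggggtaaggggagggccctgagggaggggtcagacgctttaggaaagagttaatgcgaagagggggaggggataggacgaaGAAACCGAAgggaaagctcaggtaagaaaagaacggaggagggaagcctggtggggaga
TRIM26 (chr6:30213377-30213656, reverse strand): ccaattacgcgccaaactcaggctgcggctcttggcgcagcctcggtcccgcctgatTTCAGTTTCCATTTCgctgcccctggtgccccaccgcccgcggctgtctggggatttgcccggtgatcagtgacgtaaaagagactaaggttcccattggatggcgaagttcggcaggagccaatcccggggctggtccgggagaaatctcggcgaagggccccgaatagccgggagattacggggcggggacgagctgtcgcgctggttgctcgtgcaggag
RTP4 holds 3 matches near its start, TRIM26 holds 2 farther upstream, and the other 4 windows hold 1 each. CMPK2 and MOV10 have 3 windows each in RefSeq, of which 1 is shown.

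**Figure D1:**
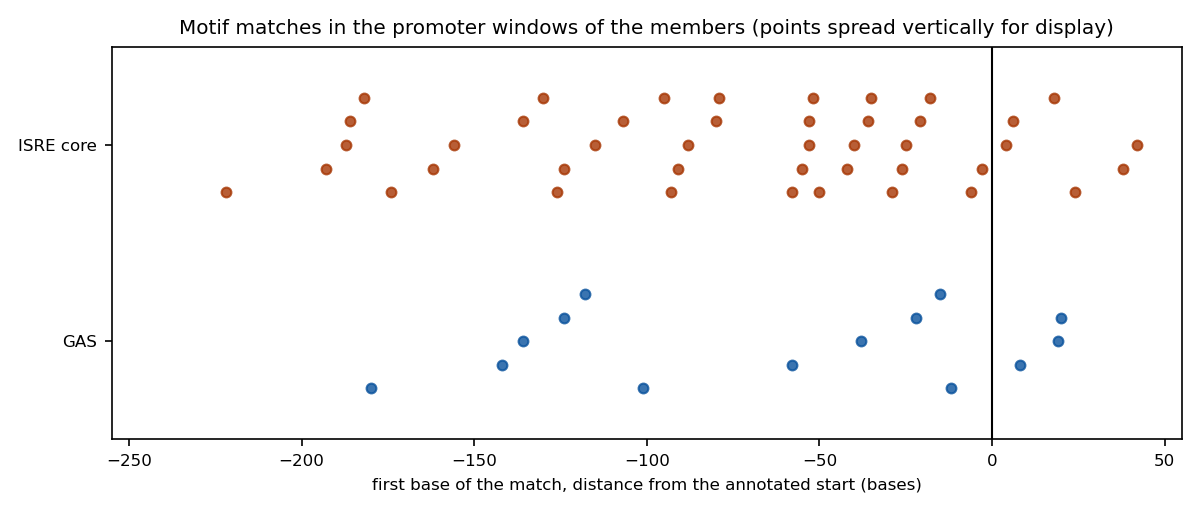
Distance of each ISRE core and GAS match from the transcription start, in bases, for all members with a match. Each point is the first base of a match, the height within a row has no meaning, and 23 of the 43 ISRE points lie within the last 100 bases before the start.

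The libraries were of the QuantSeq type, which counts 3′ ends of polyadenylated RNA, and held between 5599571 and 7730228 counts. Values below are normalized counts, raw counts scaled to a common library size by the TMM method over all 16 libraries. Epithelial carcinoma markers were abundant in both lines, although WT1 was at 0 in all UWB1.289 DMSO libraries. Their sum was lower with olaparib, at 20594 to 22793 normalized counts against 32614 to 34284 in OVCAR3, where 6 of 10 fell and KRT7 rose, and at 42386 to 51487 against 53245 to 56893 in UWB1.289, where 2 of 9 tested fell and MUC16 rose. Of 12 leukocyte markers, 6 were at or under the floor of 3 counts in every library, among them CD3E, CD3D, MS4A1, LYZ and CD163. The sum of all 12 was from 16.1 to 31.2 in OVCAR3 and from 57.4 to 84.0 in UWB1.289 controls. It reached 108 to 145 in treated UWB1.289, mostly PTPRC and CD14. Of the 2 leukocyte markers tested for olaparib in UWB1.289, CD14 rose more than 2-fold. The 7 fibroblast and endothelial markers summed to 319 to 461 in UWB1.289 controls and to 215 to 263 in the treated libraries. Of 4 tested there, COL1A2 fell more than 2-fold. In OVCAR3 they went from 153 to 203 with DMSO up to 216 to 260 with olaparib, where COL1A1 was the 1 marker tested and rose. The leukocyte sum moved with the treatment in UWB1.289, and the fibroblast and endothelial sum and the epithelial sum moved in both lines. The part of these markers in the change of the members was not tested. In bulk RNA, fewer cells with a transcript and less of it per cell cannot be told apart.

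In UWB1.289 most of the module rose with olaparib. Of the 48 members, 44 had enough counts for the test, and 38 of these rose at an adjusted p below 0.1 (86.4%), where 7.77% of all 12748 tested genes did. None of the 44 fell, against 6.10% of all genes. Beyond a change of more than 2-fold and a mean normalized count above 10, the rule applied for calling a gene differentially expressed, 25 members were higher and 0 lower, against 1.93% and 0.282% of all genes. The median log2 fold change was 1.13 for tested members and -0.00436 for all tested genes, and TRAFD1 at -0.02 was the only tested member with a negative estimate. RTP4, TRIM22, GBP4 and BATF2 had a mean below 10 with DMSO and entered the test through their olaparib libraries, so that a difference was built into their selection. IFITM1, LY6E, TMEM140 and IFI6 were not tested for lack of counts. Rises and differences are given below as log2 fold changes.

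**Figure D2:**
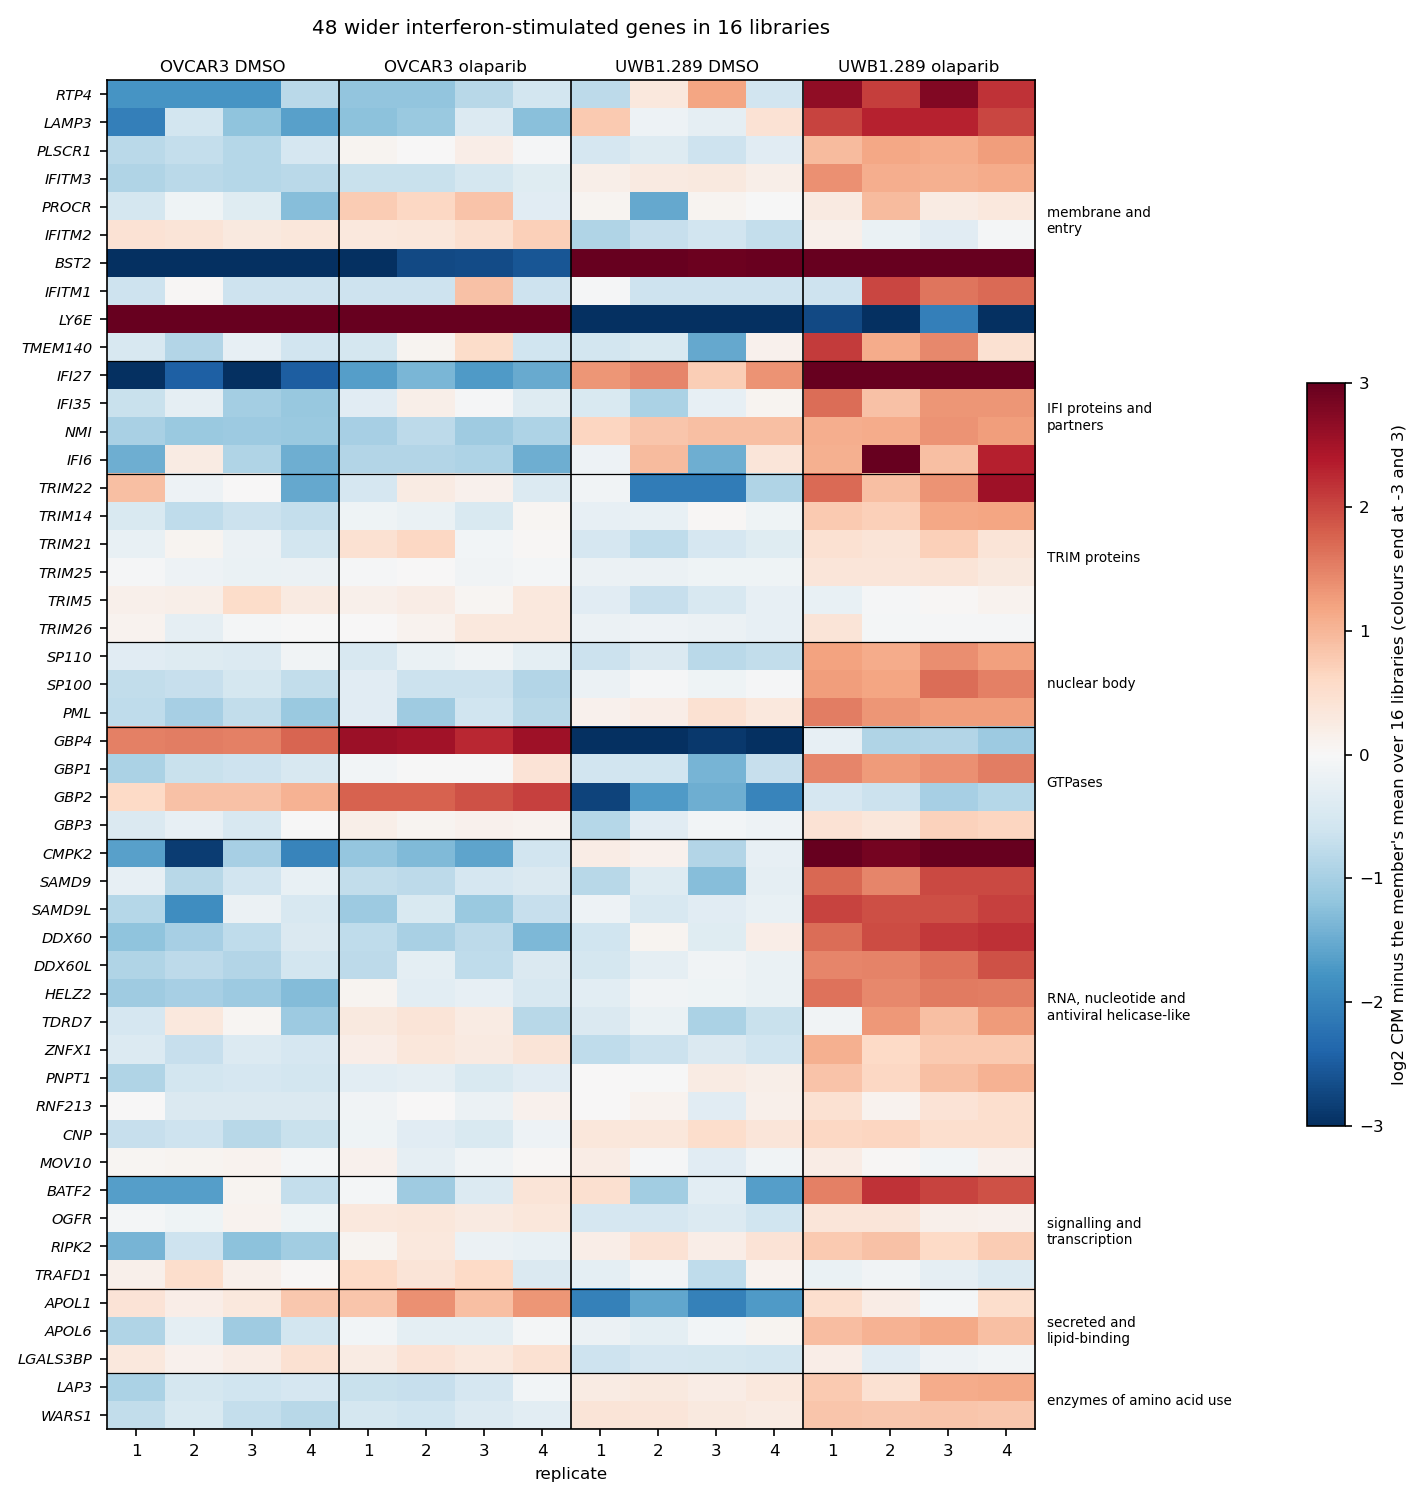
Level of each of the 48 members in each of the 16 libraries on the log2 scale less the member's mean over all libraries (colour scale cut at -3 and 3), by role, group and replicate. Most rows are highest in the 4 UWB1.289 libraries with olaparib, while others, among them GBP2, GBP4, APOL1, LY6E, IFITM2 and LGALS3BP, are highest in OVCAR3.

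Nucleotide- and RNA-acting members made up the largest role group, and 10 of 12 rose in UWB1.289, 8 of them more than 2-fold. CMPK2, a mitochondrial nucleotide kinase, stood at 24.4, 22.7, 10.3 and 17.1 normalized counts with DMSO and at 218, 165, 234 and 224 with olaparib. Its log2 fold change of 3.49 had an SE of 0.197 (edgeR adjusted p = 1.51e-11), and the groups were far apart. CMPK2 lies at chr2:6840570-6866635 (GRCh38, reverse strand) and overlaps RSAD2 on the other strand, and the sources do not state how strand was used in counting. SAMD9 and SAMD9L, neighbouring antiviral factors on chromosome 7, moved alike. For SAMD9 the DMSO libraries held 69.4, 95.2, 50.7 and 104, and the olaparib libraries 423, 351, 498 and 505. SAMD9L went from 34.2, 27.0, 30 and 32.5 to 164, 153, 152 and 165. Their log2 fold changes were 2.47 (SE 0.165) and 2.35 (SE 0.155), with edgeR adjusted p = 2.59e-10 and 1.98e-10, and no olaparib library reached down to the DMSO range.

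The helicases DDX60 and DDX60L, also neighbours, take part in sensing viral RNA. DDX60 stood at 66.4, 107, 78.7 and 118 with DMSO and 329.6, 404, 452 and 471 with olaparib. DDX60L stood at 62.5, 75.7, 84.9 and 78.8 with DMSO and 255, 259, 286 and 349 with olaparib. The rise was 2.16 (SE 0.154) for DDX60 and 1.93 (SE 0.137) for DDX60L, with edgeR adjusted p = 7.75e-10 and 7.62e-10 and without overlap between groups. HELZ2 rose by 1.73, TDRD7 by 1.57 and ZNFX1, a helicase that binds double-stranded RNA, by 1.43. PNPT1, a mitochondrial exoribonuclease, and RNF213, a ubiquitin ligase, rose by 0.76 and 0.38 and so by less than 2-fold. MOV10, a helicase that restrains retroelements, and CNP did not pass the test at 0.13 and 0.18 (edgeR adjusted p = 0.574 and 0.225).

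Among membrane proteins and entry factors, 6 of 7 tested members rose in UWB1.289 and 3 rose more than 2-fold. RTP4, a chaperone of membrane receptors, had 1.95, 6.49, 13.5 and 2.57 normalized counts with DMSO and 40.7, 26.5, 44.7 and 28.8 with olaparib, so all treated libraries lay above the highest control. It rose by 2.55 (SE 0.415, edgeR adjusted p = 0.00023). LAMP3, a lysosomal membrane protein, went from 43.0, 21.6, 19.7 and 33.4 to 104, 127, 127 and 103, again without overlap, a rise of 1.95 (SE 0.210, edgeR adjusted p = 7.16e-07). PLSCR1, a phospholipid scramblase, rose by 1.58. The IFITM proteins hinder fusion of viruses with endosomes. IFITM3 stood at 2915, 3076, 3168 and 2926 with DMSO and 6673, 5515, 5427 and 5568 with olaparib, and IFITM2 at 278, 325, 351 and 315 against 576, 455, 412 and 501. Both were higher in every treated library, but by less than 2-fold, 0.94 for IFITM3 (edgeR adjusted p = 1.16e-08) and 0.62 for IFITM2 (edgeR adjusted p = 0.00052).

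Reads of the IFITM genes may not be separable. Over the last 300 bases of their transcripts, IFITM2 and IFITM3 shared 143 of 157 aligned bases (91.1%), IFITM1 and IFITM3 shared 57 of 57, and how reads with several matches were counted is not stated. IFITM1 was scarce, with raw counts of 1, 0, 0 and 0 with DMSO and 0, 9, 7 and 8 with olaparib in UWB1.289, a ratio of 26.0 with an exact 95% interval for counting error from 4.24 to 1069. Olaparib replicate 1, at 0, was no higher than the controls. TMEM140, with 9 raw counts over the DMSO libraries and 49 over the olaparib libraries, gave a ratio of 5.90 (interval 2.87 to 13.6). BST2 or tetherin, which holds budding virions at the cell surface, rose by 0.46 in UWB1.289 from a high level. PROCR, the protein C receptor, did not pass the test at 0.73 (edgeR adjusted p = 0.224).

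The guanylate-binding proteins are GTPases that coat vacuoles of pathogens, and all 4 measured members rose in UWB1.289. GBP1 stood at 247, 242, 139 and 225 with DMSO and at 1015, 897, 956 and 1062 with olaparib, a rise of 2.2 (SE 0.129, edgeR adjusted p = 2.4e-11). GBP4 went from 0.977, 2.16, 3.10 and 1.71 to 30, 18.5, 18.7 and 15.9, that is from 8 to 78 raw counts, a ratio of 10.6 with a counting interval from 5.10 to 25.3. Neither gene overlapped between groups, and without olaparib replicate 1 the mean count of GBP4 fell to 10 or less. GBP2 stood at 23.5, 51.9, 61.1 and 41.9 with DMSO and 119.9, 108, 85.3 and 93.3 with olaparib, which is 1.2 (SE 0.215, edgeR adjusted p = 0.000708). Without UWB1.289 DMSO replicate 1, the lowest library, the GBP2 estimate was 0.99 and so under 2-fold. GBP3, from 44, 63.8, 76.6 and 72.8 to 111, 103, 132 and 129, rose by 0.89 (SE 0.170, edgeR adjusted p = 0.00133). GBP1 and GBP3 shared 201 of 260 aligned bases (77.3%) at the 3′ end.

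TRIM proteins are ubiquitin ligases and adaptors of antiviral signalling, and 4 of 6 rose. TRIM22 was nearly absent with DMSO, at 5.86, 0, 0 and 2.57 normalized counts, and reached 25.7, 13.8, 19.8 and 47.7 with olaparib. The raw counts, 9 against 103, gave a ratio of 12.4 (counting interval 6.28 to 27.9), and the log2 fold change of the fit was 3.55, with an SE of 0.591 (edgeR adjusted p = 0.000292). TRIM22 overlaps TRIM5 on the opposite strand, and without olaparib replicate 4, its highest library, its mean count fell to 10 or less. TRIM14, an adaptor at mitochondria, rose by 1.13, TRIM21, a cytosolic antibody receptor, by 1.10, and TRIM25, which ubiquitinates RIG-I, by 0.51. TRIM5 and TRIM26 had estimates of 0.41 and 0.28 that did not pass (edgeR adjusted p = 0.114 and 0.219). With the replicate number as a block, TRIM5 passed (edgeR adjusted p = 0.0853). All 3 nuclear body members rose more than 2-fold. SP110 stood at 141, 162, 124 and 131 with DMSO and 510.5, 474, 583 and 519 with olaparib, a rise of 1.91 (SE 0.110, edgeR adjusted p = 2.13e-11) without overlap. SP100 rose by 1.53 and PML, the protein that organizes these bodies, by 1.08.

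IFI27, a small membrane protein found at mitochondria, stood at 678, 739.9, 448 and 687 with DMSO and 2638, 2348, 2167 and 2607 with olaparib. Its rise was 1.94 (SE 0.116, edgeR adjusted p = 3.96e-11). IFI35 and its partner NMI rose by 1.75 and 0.38. IFI6, an inhibitor of apoptosis, was too scarce for the test, with raw counts of 3, 8, 0 and 6 against 9, 62, 8 and 26, and 62 of its 105 olaparib counts came from replicate 2. BATF2, a basic leucine zipper factor, went from 6.84, 1.08, 3.10 and 0 to 16.1, 26.5, 23.9 and 21.8, a rise of 2.97 (SE 0.518, edgeR adjusted p = 0.000499) without overlap. In the fit to all 16 libraries its mean count fell to 10 or less, and BATF2 was no longer counted as differentially expressed.

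APOL1, an apolipoprotein of innate defence against trypanosomes, stood at 17.6, 24.9, 17.6 and 22.3 with DMSO and 110.2, 89.9, 73.8 and 112 with olaparib. It rose by 2.23 (SE 0.212, edgeR adjusted p = 9.76e-08), and its relative APOL6 rose by 1.13. LGALS3BP, a secreted glycoprotein, rose by 0.47, as did WARS1, the tryptophan-tRNA ligase, by 0.49 and LAP3, an aminopeptidase, by 0.63. Among signalling proteins, OGFR rose by 0.76 and RIPK2, the kinase downstream of NOD receptors, by 0.44. The 13 members that rose by less than 2-fold had log2 fold changes between 0.38 and 0.94.

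**Figure D3:**
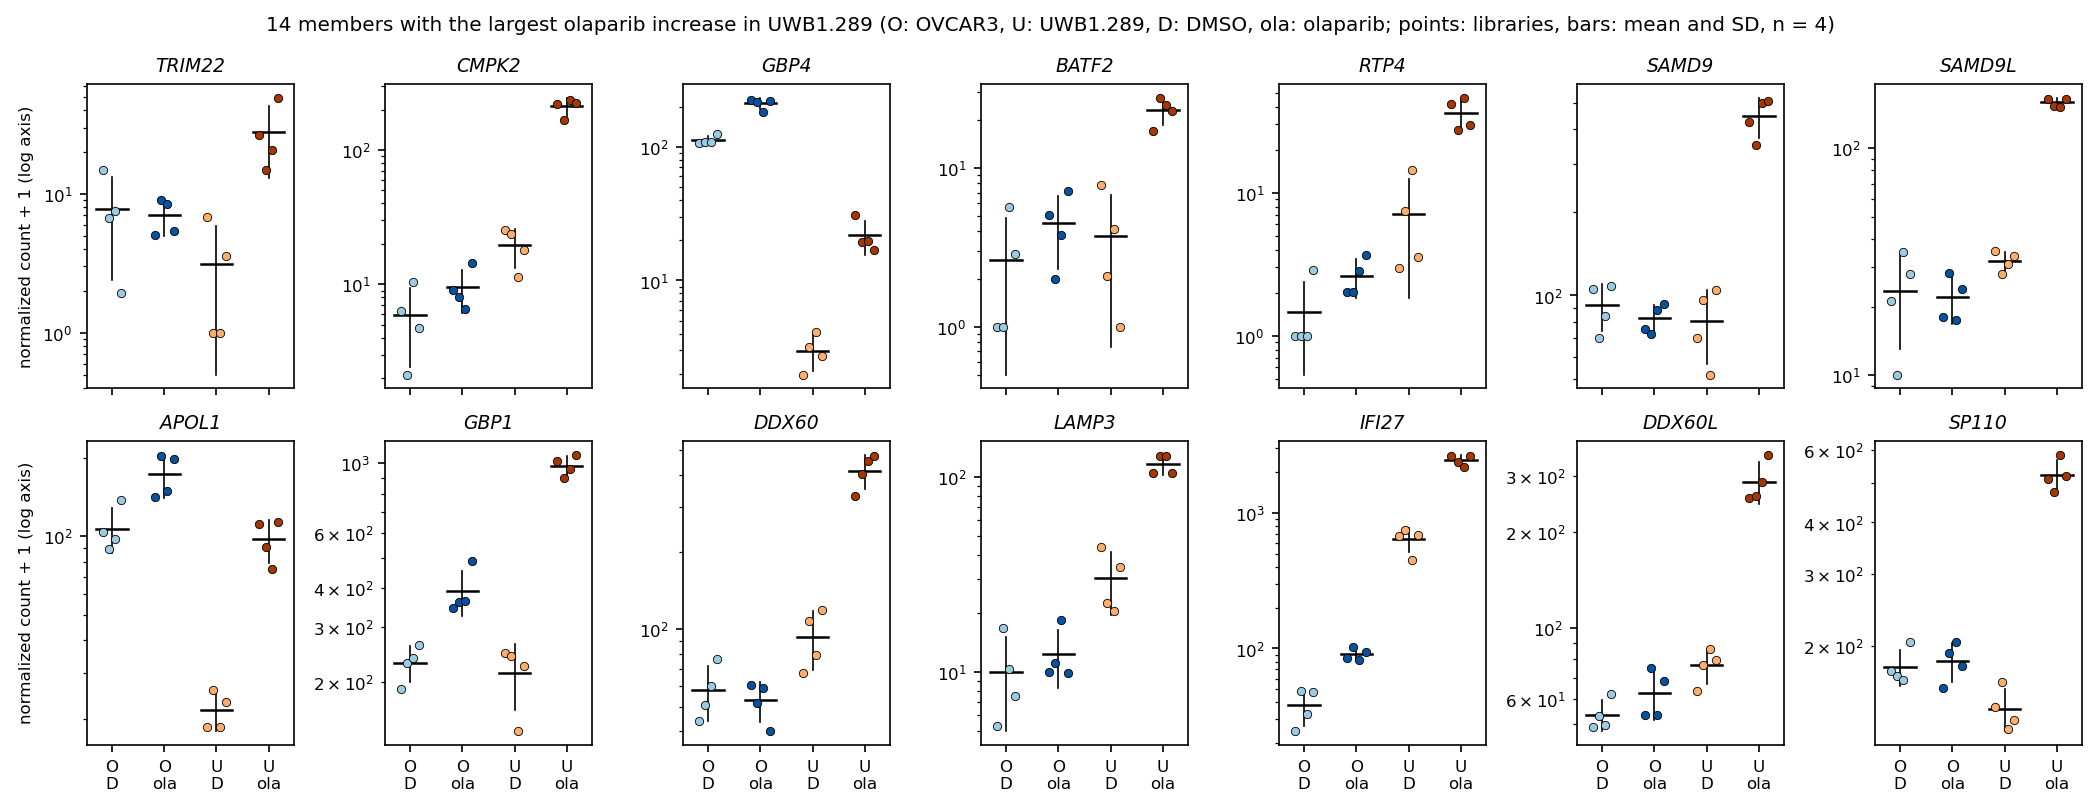
Normalized counts plus 1, each panel on its own log axis, of the 14 members with the largest fold change in UWB1.289 in each of the 16 libraries, with the mean (line) and SD (bar, drawn no lower than 0.5) of each group of 4. The 4 UWB1.289 olaparib libraries lie above the 4 UWB1.289 DMSO libraries in every panel. The panels were picked by this UWB1.289 comparison, so the separation was in part built into the selection. Ranges of the OVCAR3 groups overlap in all panels but GBP4, APOL1, GBP1 and IFI27. How often genes in general separate or overlap was not computed.

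In OVCAR3 fewer members moved and the changes were smaller. Of 40 tested members, 20 rose (50%), where 15.5% of all 13031 tested genes did, and 0 fell, against 16%. More than 2-fold changes were found for 5 members, all higher (12.5%, against 2.90% of all genes), and for 0 lower (against 2.33%). The median log2 fold change was 0.30 for tested members and -0.0117 for all tested genes, and 35 of 40 estimates were above 0. IFITM1, LAMP3, RTP4, TMEM140, IFI6, TRIM22, CMPK2 and BATF2 were not tested for lack of counts. Of the 5 members with the largest estimates in UWB1.289, TRIM22, CMPK2, BATF2 and RTP4 could thus not be tested in this line, and GBP4 could.

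Of the 5 genes past 2-fold in OVCAR3, BST2 and PROCR belong to the membrane and entry group. IFI27, GBP2 and RIPK2 each belong to a different one. BST2 stood at 17.1, 17.0, 24.4 and 25.1 normalized counts with DMSO and at 34.2, 43.5, 44.3 and 48 with olaparib, a rise of 1.01 (SE 0.242, edgeR adjusted p = 0.00425). IFI27 went from 23.6, 47.7, 31.9 and 46.5 to 84.6, 102, 81.2 and 93.3, or 1.27 (SE 0.204, edgeR adjusted p = 0.000104). Neither overlapped between treatments. RIPK2 stood at 77.1, 135, 87.3 and 99.4 against 221, 258, 185 and 179, a rise of 1.08 (SE 0.162, edgeR adjusted p = 4.95e-05). PROCR went from 10.7, 14.8, 12.2 and 5.58 to 29.2, 26.3, 31.4 and 12.4, or 1.2 (SE 0.365, edgeR adjusted p = 0.0203). Here olaparib replicate 4 lay within the DMSO range. GBP2 stood at 262, 320.0, 320.0 and 357 with DMSO and 589, 593, 649.5 and 721 with olaparib, which is 1.02 (SE 0.101, edgeR adjusted p = 2.91e-07) without overlap. These estimates lie close to 2-fold. Leaving out OVCAR3 DMSO replicate 1 left 2 of the 5 above it, without BST2 (0.93), GBP2 (0.94) and RIPK2 (0.98), and leaving out olaparib replicate 4 left 3, without BST2 (0.95) and GBP2 (0.96). BST2 was also under 2-fold without DMSO replicate 2 (0.93), PROCR without DMSO replicate 4 (0.98) and RIPK2 without olaparib replicate 2 (0.97).

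All 4 GBP genes rose in OVCAR3, as they had in UWB1.289. GBP4 stood at 106, 108, 107 and 125 with DMSO and 224, 214, 181 and 220.3 with olaparib, a rise of 0.91 (SE 0.122, edgeR adjusted p = 1.33e-05). GBP1 went from 189.6, 229, 237 and 262 to 345, 361, 364 and 485, or 0.76 (SE 0.122, edgeR adjusted p = 0.000102). GBP3, from 60, 68.1, 57.2 and 79.9 to 91.6, 86.0, 89.5 and 87.9, rose by 0.42 (SE 0.157, edgeR adjusted p = 0.0563). The treatments did not overlap for any of the 4, and the share of all genes without overlap was not computed. Of the nucleotide- and RNA-acting group, 5 of 11 tested members rose, led by HELZ2 (0.89) and ZNFX1 (0.81), with CNP (0.45), RNF213 (0.29) and PNPT1 (0.28) behind. PLSCR1 rose by 0.79, APOL1 by 0.69, APOL6 by 0.51, TRIM14 by 0.48, OGFR by 0.37, IFITM3 by 0.30 and WARS1 by 0.23. None of the 3 nuclear body genes passed the test, with estimates of 0.05 for SP110, 0.06 for SP100 and 0.21 for PML. The 20 tested members that did not pass had estimates between -0.16 and 0.68, and IFI35 held the highest of these (edgeR adjusted p = 0.129).

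Whether olaparib acted differently in the lines was tested as an interaction of line and treatment over all 16 libraries. Of 45 tested members, 26 had the larger log2 fold change in UWB1.289 (57.8%, against 5.09% of all 14243 genes) and 2 in OVCAR3 (4.44%, against 5.83%). A difference of more than 2-fold in the change was found for 13 members in the direction of UWB1.289, against 2% of all genes, and for 0 in the other, against 1.66%. Of these 13, TRIM22, CMPK2 and LAMP3 were too scarce for the test in OVCAR3 alone. They entered through UWB1.289, so that a difference was in part built into their selection. LY6E entered through OVCAR3, and its estimate depends on the prior count of the fit, as its UWB1.289 DMSO libraries held no count. The median difference was 0.64 for members and 0.0105 for all tested genes. Of the 39 members tested in both lines, 18 rose in both and 15 rose in UWB1.289 without passing in OVCAR3. For 10 of these 15 the difference itself passed the test, namely IFITM2, TRIM25, PML, SP100, SP110, DDX60, DDX60L, SAMD9, SAMD9L and LGALS3BP. It did not pass for IFI35, NMI, TRIM21, TDRD7 and LAP3. With the replicate number as a block it passed for IFI35 (1.08, edgeR adjusted p = 0.0827) and TDRD7 (1.18, edgeR adjusted p = 0.0560), and the difference of OGFR no longer did (edgeR adjusted p = 0.105). CNP and PROCR rose in OVCAR3 without passing in UWB1.289, and TRIM5, TRIM26, MOV10 and TRAFD1 passed in neither. The shares of all tested genes that rose in both lines or in a single line were not computed, so these counts describe the members only.

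Several of these genes had overlapping groups in OVCAR3. SAMD9 stood there at 105, 69.2, 83.5 and 107 normalized counts with DMSO and 74.5, 71.8, 87.6 and 92.4 with olaparib, an overlap of the groups, and the log2 fold changes differed by 2.63 between the lines (SE 0.249, edgeR adjusted p = 1.25e-08). For SAMD9L, with 20.4, 9.08, 33.8 and 27.0 against 17.1, 27.3, 16.6 and 23.1, the difference was 2.48 (SE 0.346, edgeR adjusted p = 1.3e-05). DDX60 stood at 42.9, 49.9, 59.1 and 75.3 against 59.4, 50.6, 58.1 and 39.1, with a difference of 2.31 (SE 0.264, edgeR adjusted p = 5.08e-07). These helicase and SAMD9 family genes showed overlapping groups in OVCAR3 and separate groups in UWB1.289. They were picked by their rise in UWB1.289, so the separation there was in part built into the selection. How often genes in general show this was not computed. DDX60L, with 48.2, 52.2, 48.8 and 61.3 against 52.4, 73.8, 52.6 and 67.5, differed by 1.71 (SE 0.223, edgeR adjusted p = 4.63e-06). SP110, with 172, 168, 164 and 204 against 157, 191, 204 and 178, differed by 1.86 (SE 0.161, edgeR adjusted p = 2.52e-09). SP100 differed by 1.47 and GBP1 by 1.44, the latter between a strong and a moderate rise.

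For scarce genes the difference rests on few counts in OVCAR3. TRIM22 stood there at 13.9, 5.67, 6.57 and 0.929 with DMSO and 4.03, 8.09, 7.38 and 4.44 with olaparib, and its difference was 3.7 (SE 0.918, edgeR adjusted p = 0.0100). Leaving out olaparib replicate 1, 3 or 4 of UWB1.289 kept an estimate of at least 3.23, but the mean count fell to 10 or less. CMPK2 stood at 5.36, 1.13, 9.38 and 3.72 against 8.06, 7.08, 5.54 and 13.3, with a difference of 2.74 (SE 0.566, edgeR adjusted p = 0.00196). LAMP3, at 4.29, 15.9, 9.38 and 6.51 against 9.06, 10.1, 17.5 and 8.88, differed by 1.59 (SE 0.471, edgeR adjusted p = 0.0341), and without OVCAR3 DMSO replicate 2 the adjusted p was 0.159. BATF2 and RTP4 did not pass, with differences of 2 (edgeR adjusted p = 0.326) and 1.03 (edgeR adjusted p = 0.822). In OVCAR3 RTP4 had raw counts of 0, 0, 0 and 2 with DMSO and 1, 1, 2 and 3 with olaparib. BATF2 had 0, 0, 5 and 2 against 4, 1, 3 and 7.

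BST2 and RIPK2 went the other way. BST2 rose in both lines, by 1.01 in OVCAR3 and 0.46 in UWB1.289, a difference of -0.55 (SE 0.180, edgeR adjusted p = 0.0596). RIPK2 rose by 1.08 and 0.44, a difference of -0.64 (SE 0.195, edgeR adjusted p = 0.0402). At an adjusted p below 0.05 only RIPK2 of the 2 passed, and without OVCAR3 DMSO replicate 1 neither did. In UWB1.289 RIPK2 stood at 238, 280.2, 239 and 278 with DMSO and 357, 385, 313 and 351 with olaparib, and so the treatments did not overlap in this line either. PROCR in UWB1.289, at 17.6, 4.33, 17.6 and 16.3 against 20.3, 33.4, 19.8 and 20.9, gave a difference of -0.47 that did not pass (edgeR adjusted p = 0.691). GBP2 rose by 1.2 in UWB1.289 and 1.02 in OVCAR3, a difference of 0.18 that did not pass (SE 0.227, edgeR adjusted p = 0.733).

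**Figure D4:**
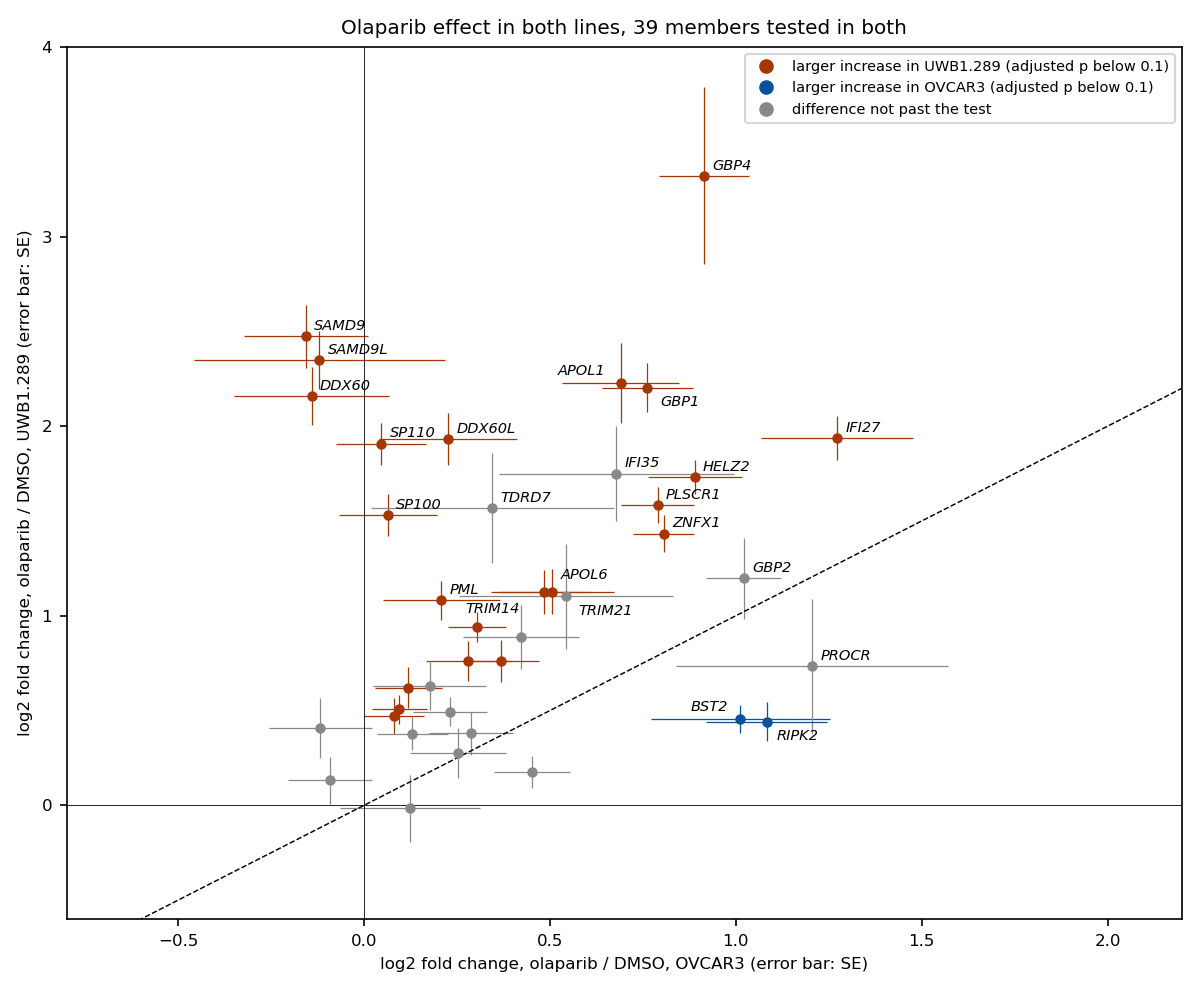
Log2 fold change with olaparib in OVCAR3 against that in UWB1.289 for the 39 members tested in both lines, with SE bars and a dashed line of equal change. Of these members, 34 lie on the UWB1.289 side of the line and 5 (BST2, PROCR, CNP, RIPK2 and TRAFD1) on the OVCAR3 side; colours show where the difference passed the test.

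Before any olaparib, some members stood higher in UWB1.289 and others in OVCAR3, as most genes of the table did. With DMSO, 20 of 42 tested members were higher in UWB1.289 (47.6%) and 10 lower (23.8%), where 39.8% and 40.1% of all 13366 genes were. Differences of more than 2-fold were found for 10 members higher and 5 lower, against 18.7% and 19.7% of all genes. These are 23.8% and 11.9% of tested members. In either direction, 71.4% of members and 79.9% of all genes passed, and 35.7% and 38.4% differed more than 2-fold, so members differed between the lines about as often as genes in general. The median difference was 0.35 for members and -0.024 for all genes. IFITM1, RTP4, TMEM140, IFI6, TRIM22 and BATF2 were not tested.

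BST2 showed the largest difference in the upward direction, at 2445, 2546, 2267 and 2329 normalized counts in the UWB1.289 DMSO libraries against 17.1 to 25.1 in OVCAR3, a log2 difference of 6.81 with an SE of 0.116 (edgeR adjusted p = 1.96e-28). With olaparib UWB1.289 held 3389, 3191, 3307 and 3242, so the line with the high level showed the smaller relative rise. IFI27 was higher in UWB1.289 by 4.09 (SE 0.165, edgeR adjusted p = 1.43e-19). NMI stood at 994, 1131, 1193 and 1194 in UWB1.289 and 326, 294, 297 and 294 in OVCAR3, a difference of 1.90 (SE 0.0835, edgeR adjusted p = 1.23e-18). In OVCAR3 with olaparib NMI held 319, 367, 303 and 333, and in UWB1.289 1353, 1369, 1622 and 1510.4. CMPK2 and LAMP3 were higher by 1.86 and 1.72, but with a mean below 10 in OVCAR3 they entered the test through UWB1.289, as LY6E and GBP4 entered it through OVCAR3, and the direction of these 4 was built into the selection. RIPK2 was higher by 1.38, PML by 1.17, CNP by 1.10, IFITM3 by 1.08 and WARS1 by 1.01. WARS1 fell just under 2-fold, to as little as 0.95, without OVCAR3 replicate 1, 3 or 4 or UWB1.289 replicate 1. For IFITM3 the OVCAR3 libraries held 1368, 1461, 1426 and 1457 with DMSO and 1625, 1622, 1791 and 1991 with olaparib.

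LY6E, a lipid-anchored surface protein that blocks coronavirus entry, was the reverse. Its raw counts were 322, 318, 347 and 357 in OVCAR3 with DMSO and 359, 384, 418 and 408 with olaparib, but 0 in each UWB1.289 DMSO library and 3, 2, 6 and 2 with olaparib. Against a floor of 3 counts per library, its level with DMSO was at least 115-fold higher in OVCAR3. GBP4 had 442 raw counts over the OVCAR3 DMSO libraries and 8 over those of UWB1.289, a ratio of 57.0 with a counting interval from 28.7 to 133. GBP2 was also lower in UWB1.289, its difference being -2.83 (SE 0.168, edgeR adjusted p = 1.72e-15). APOL1 in OVCAR3 stood at 103, 88.5, 96.7 and 137 with DMSO and 140.0, 202, 148 and 196 with olaparib, and its difference between the lines with DMSO was -2.37 (SE 0.210, edgeR adjusted p = 1.89e-11). IFITM2 stood at 708, 682, 639 and 659.9 with DMSO and 651, 666, 734 and 858 with olaparib in OVCAR3, and was lower in UWB1.289 with DMSO (-1.09, SE 0.0864, edgeR adjusted p = 1.64e-12). None of these 5 genes overlapped between the lines with DMSO. They were picked for the largest differences in this direction, so the separation was in part built into the selection. The share of all genes without overlap was not computed.

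**Figure D5:**
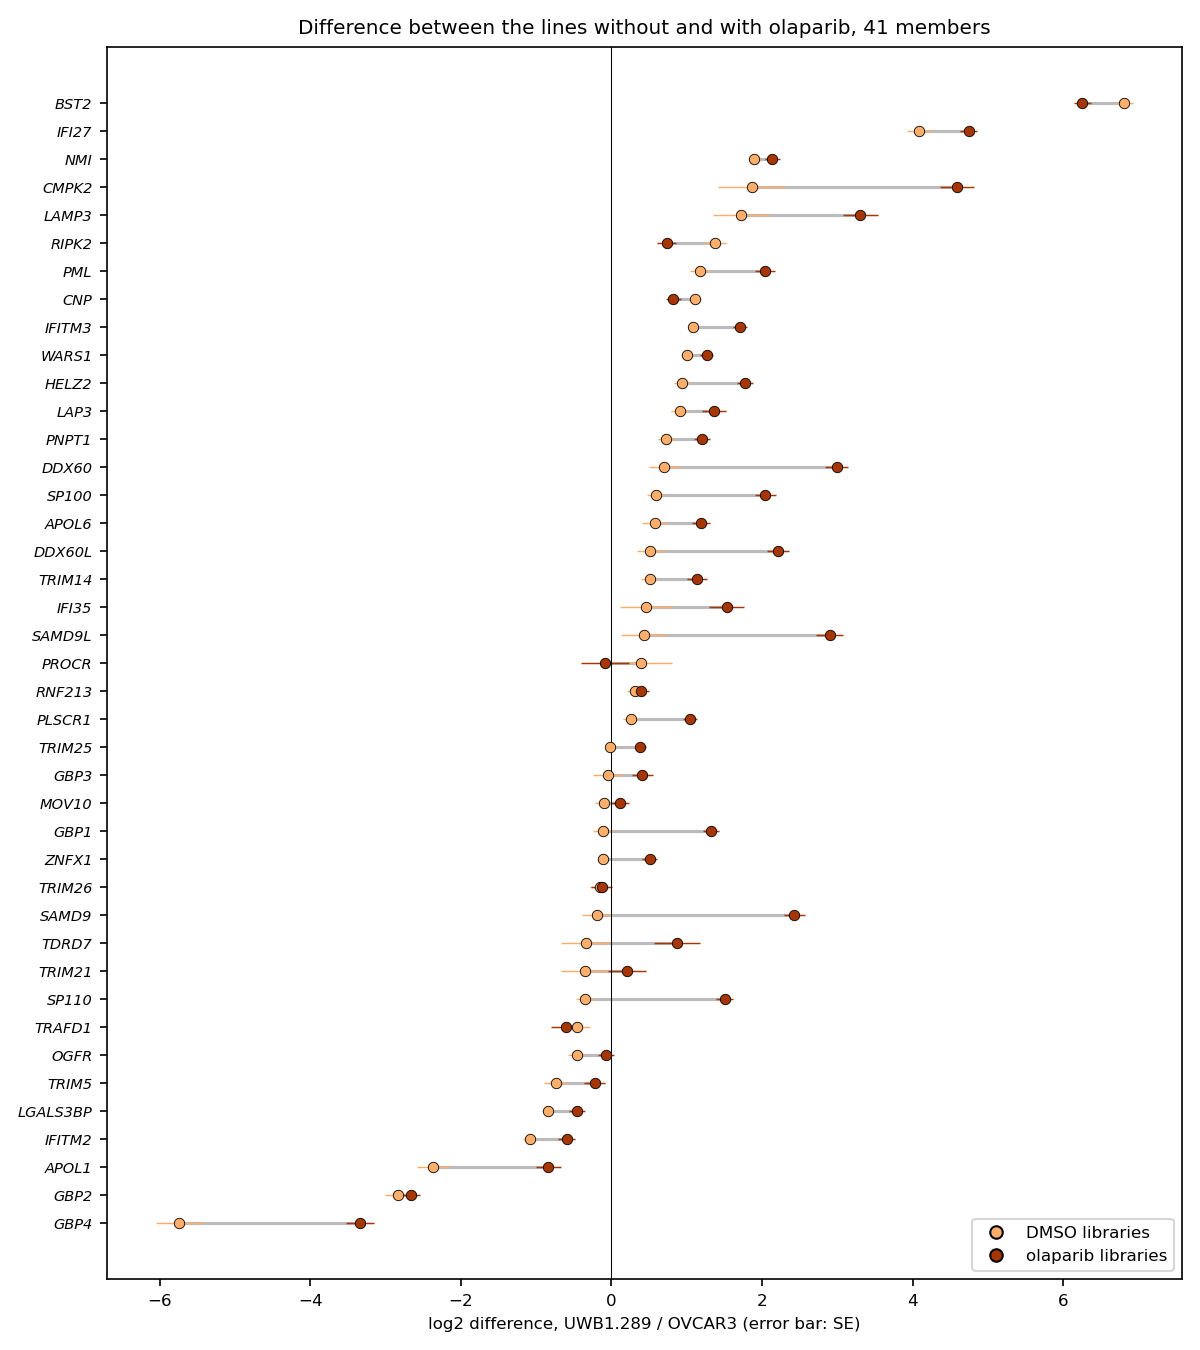
Log2 difference between UWB1.289 and OVCAR3 with DMSO and with olaparib with SE bars for 41 members tested in both comparisons, LY6E left out because its UWB1.289 DMSO libraries were all at 0. BST2 and IFI27 lie far to the UWB1.289 side and GBP4 and GBP2 to the OVCAR3 side under both treatments, and most other members lie farther to the UWB1.289 side with olaparib.

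With olaparib in both lines, 32 of 45 tested members were higher in UWB1.289 (against 38.4% of all 13398 genes) and 7 lower (against 38.1%). More than 2-fold differences were found for 25 higher and 3 lower, against 18.6% and 18.3% of all genes. The median difference was 1.19 for members and 0.0122 for all tested genes. Each comparison between the lines has its own 8 libraries. All 20 members higher in UWB1.289 with DMSO were also higher with olaparib. A further 8 members had not passed with DMSO and were higher with olaparib, namely IFI35, TRIM25, GBP1, GBP3, ZNFX1, TDRD7, SAMD9 and SAMD9L, and RTP4, TRIM22 and BATF2 became testable and higher. RTP4, TRIM22, BATF2 and CMPK2 had a mean below 10 in OVCAR3 and entered this test through UWB1.289, and LY6E entered through OVCAR3, so that their direction was built into the selection. SP110 changed side, from -0.35 with DMSO to 1.5 with olaparib (edgeR adjusted p = 0.0127 and 7.09e-10). IFITM2, LY6E, GBP2, GBP4, TRAFD1, LGALS3BP and APOL1 were lower in UWB1.289 under both treatments. How often genes in general kept or changed side in this way was not computed. For APOL1 the difference was -0.84 with olaparib and for GBP4 -3.34, nearer to 0 than with DMSO.

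Genes of interferon signalling that are not members were taken as a list, of which 27 are reported. Not all act upstream of the module, as STAT2 and USP18 also stand in the interferon alpha response set that the paper used. In UWB1.289, 8 of 18 tested genes of the list rose and 0 fell, against 7.77% and 6.10% of all genes. The 8 were IFNGR1, STAT2, STAT3, IRF1, IRF5, IRF7, IRF9 and USP18. In OVCAR3, 10 of 18 rose and 0 fell, namely IFNAR2, IFNGR1, IFNGR2, JAK1, TYK2, STAT3, IRF1, IRF3, IRF7 and IRF9. USP18, which removes ISG15 and dampens the receptor, rose by 1.5 in UWB1.289 and stood at -0.02 in OVCAR3 without passing (edgeR adjusted p = 0.962). In the interaction test the log2 fold change was higher in UWB1.289 for 4 of 19 tested genes, namely STAT2, IRF1, IRF7 and USP18. It was lower for 3, namely JAK1, TYK2 and IRF3. The shares of all genes were 5.09% and 5.83%. JAK1, TYK2 and IRF3 rose in OVCAR3. In UWB1.289 they had estimates of 0.18, -0.23 and -0.20 that did not pass (edgeR adjusted p = 0.237, 0.170 and 0.261). With DMSO, 8 of 19 tested genes of the list were higher and 9 lower in UWB1.289, near the 39.8% and 40.1% of all genes. The interferon genes themselves were near the limit of detection, with 1 count of IFNB1, 0 of IFNA1 and IFNK, 15 of IFNE, 27 of IFNL1, 8 of IFNL2 and 2 of IFNL3 over all 16 libraries, and at most 9 in any library. Of these, IFNL1 went from 3 raw counts with DMSO to 14 with olaparib in UWB1.289, 9 of them in 1 library, and from 4 to 6 in OVCAR3. IFNL2 went from 0 to 7 in UWB1.289 and from 0 to 1 in OVCAR3. These counts were too few for the test across genes. The other interferon genes, IFNE among them, are not split by group here, so no change of the set is read from these counts.

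By position, the 48 members lie on 16 chromosomes. For 11 of them the next protein-coding gene is another member, as in the IFITM, GBP, SAMD9, DDX60 and TRIM5 clusters, so these members share a locus. Another annotated gene on either strand overlaps 29 members, and a count can then include reads of the neighbour.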

How the data were processed

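RNA of 16 libraries, 4 per group of cell line and treatment, was measured as raw gene counts in 1 table. The authors made these counts from single-end QuantSeq 3′ reads, trimmed with BBDuk, aligned to hg38 with STAR 2.7.9a and counted per gene with featureCounts 2.0.0 and the GENCODE annotation, tool versions being those of the submitters' processing notes. The deposited counts were not normalized, and all columns were used. Strand and multiple-match settings are not given in the sources used here. Counts near 10 carry a large counting error at 5599571 to 7730228 counts per library, and intervals and floors cover counting error only. None of the 24 pairs of libraries within groups was identical (lowest chi-square per gene 3.03). In the OVCAR3 olaparib group, pairs with replicate 4 gave 8.43 to 13.0 and the other pairs 3.67 to 4.70. This library thus lay farther from its group over all genes. Pairs of UWB1.289 olaparib libraries gave 3.17 to 8.38.

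Tests used R 4.3.3 and edgeR 4.0.16 with TMM normalization, filterByExpr and the two-sided quasi-likelihood F test, Benjamini-Hochberg adjusted over all tested genes. Each comparison of 2 groups was fitted on its own 8 libraries and the interaction on all 16. A gene rose or fell at an adjusted p below 0.1, and was called differentially expressed if it also changed more than 2-fold with a mean normalized count above 10 in the fitted libraries. Each SE was obtained from the estimate and its F statistic. Gene coordinates and overlaps come from GENCODE on hg38, promoter windows from RefSeq on GRCh38.p14. Ratios of scarce genes use summed raw counts, scaled to library size, with exact 95% intervals. The scripts were tested on simulated data.

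The members, role groups, signalling list and marker lists were chosen with earlier results of these data known. 1 gene of the signalling list is not reported here. Values in every library are given for the 14 members with the largest fold change among those called in UWB1.289 and all members called in OVCAR3. They are also given for up to 4 with the largest difference of the olaparib effect in each direction. The 5 with the largest difference between the lines with DMSO in each direction and the IFITM and GBP families complete the set. For members picked by size, separate groups were in part built into the choice. The share of all genes with separate groups was not computed. Alternatives were DESeq2 1.42.0, its size factors, no filter, a mean count above 50, no fold threshold, an adjusted p below 0.05, all 16 libraries, a replicate block and leaving out each library.

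Replicate numbers were checked by the correlation of deviations from the group means. In UWB1.289 it was between 0.135 and 0.249 for libraries with the same number. Every value was above 0.1, but no label says that the numbers pair the libraries, and replicates 1 and 2 each correlated better with another number (0.190). In OVCAR3 the correlation was between 0.0583 and 0.184. The main fits used no pairing in either line, and the replicate number entered as a block only in the alternative fits.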

Additional observations from a re-analysis of the deposited data

Results flagged for a closer look

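The olaparib effect differed between the lines for 28 members at an edgeR adjusted p below 0.1. As the log2 fold change in UWB1.289 minus that in OVCAR3, the differences above 1 were TRIM22 3.7, CMPK2 2.74, SAMD9 2.63, SAMD9L 2.48, GBP4 2.41, DDX60 2.31, SP110 1.86, DDX60L 1.71, LAMP3 1.59, APOL1 1.54, SP100 1.47 and GBP1 1.44. LY6E at 4.70 depends on the prior count of the fit, since its UWB1.289 DMSO libraries held no count. Smaller differences were PML 0.88, HELZ2 0.84, PLSCR1 0.80, IFI27 0.67, TRIM14 0.64, IFITM3 0.64, ZNFX1 0.63, APOL6 0.62, IFITM2 0.50, PNPT1 0.48, TRIM25 0.41, LGALS3BP 0.39 and OGFR 0.39. In the other direction stood BST2 at -0.55 and RIPK2 at -0.64.

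Within groups of 4, a library stood apart from its group by Dixon's ratio in 7 of 77 groups of the named members, where chance gives about 1 in 20. GBP4 was at 125 normalized counts in OVCAR3 DMSO replicate 4 and NMI at 326 in replicate 1 of the same group. With olaparib in OVCAR3, GBP1 was at 485 in replicate 4 and LAMP3 at 17.5 in replicate 3. PROCR stood apart in UWB1.289 replicate 2 in both groups, low with DMSO at 4.33 and high with olaparib at 33.4. IFITM3 was at 6673 in UWB1.289 olaparib replicate 1.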

How the results depend on the processing

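Without the fold-change threshold, 38 members were differentially expressed in UWB1.289, 20 in OVCAR3, 28 in the interaction and 30 between the lines with DMSO, the last 2 counted in both directions. With a mean count above 50, 3 were called in OVCAR3, and at an adjusted p below 0.05, 1 member had the smaller effect in UWB1.289. Leaving out 1 library gave from 2 to 5 members called in OVCAR3 and from 0 to 2 with the smaller effect in UWB1.289. It also gave from 16 to 19 members that rose in OVCAR3, below the 20 of the full fit. For the larger effect in UWB1.289 it gave from 22 to 27, against 26 in the full fit. With all 16 libraries in the fit, BATF2 was not called in UWB1.289. Signs turned only for members that had not passed the test. Without a filter on low counts these were TRIM26 in the interaction (-0.013) and TRIM25 between the lines with DMSO (0.00097). Over fits that left out 1 library, the estimates of such members ran as follows on the log2 scale: TRAFD1 (from -0.16 to 0.12) in UWB1.289; DDX60 (from -0.25 to 0.026), SAMD9L (from -0.37 to 0.14), SP100 (from -0.042 to 0.14) and SP110 (from -0.00065 to 0.12) in OVCAR3; GBP2 (from -0.035 to 0.36), RNF213 (from -0.033 to 0.17), RTP4 (from -1.30 to 1.75) and TRIM26 (from -0.099 to 0.092) in the interaction; GBP1 (from -0.20 to 0.057), GBP3 (from -0.13 to 0.11) and TRIM25 (from -0.045 to 0.0099) between the lines with DMSO; PROCR (from -0.31 to 0.054) between the lines with olaparib. With the replicate number as a block, 25 members were called in UWB1.289, 5 in OVCAR3 and 15 in the interaction, and other than for TRIM5, IFI35, TDRD7, OGFR and WARS1 in OVCAR3 (adjusted p = 0.109) no member changed its side of an adjusted p of 0.1. The causes were not tested. Counts below about 10 per library limit TRIM22, BATF2, RTP4, GBP4 in UWB1.289 and CMPK2 and LAMP3 in OVCAR3.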
